A study of Homo sapiens with 20 samples.

Results

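Parental AMO1 cells were compared with the parental cells of 2 other myeloma lines, L363 and RPMI-8226 (RPMI), to describe which transcripts set AMO1 apart. The comparison used the 6 libraries labelled WT in these lines, 2 per line, out of 20 libraries in the series. It covered 12017 of 18305 genes, those with a mean of at least 1 FPKM in any of the 3 lines. FPKM counts sequenced fragments scaled to the length of the transcript and to the number of fragments mapped in the library. Such values still depend on which transcripts make up a library, so rescaling was among the alternatives tried. Differences are given on the log2(FPKM + 1) scale as the AMO1 mean minus the mean of the L363 and RPMI group means, unless a single line is named. Adding 1 to each value makes the difference of a gene with a low level smaller than its ratio.

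The study profiled the surface of malignant plasma cells and sequenced RNA from cell lines and from sublines grown with proteasome inhibitors. AMO1, L363 and RPMI are myeloma lines and carried no added transgene or deletion in the labels. WT cells of these 3 lines formed the groups compared. BtzR cells of the same 3 lines, grown in 90 nM of the proteasome inhibitor bortezomib, gave 6 libraries in which the same line difference could be looked at again. ARH-77, a B-lymphoblastoid line, was the fourth WT line, and its values are given only side by side. All cells shared the same serum-supplemented medium. Each group is 1 line, so the p-values below measure the spread between 2 biological replicates of a line, and what is due to the line, its donor or its time in culture cannot be told apart.

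Plasma cells are the antibody-secreting end stage of the B lineage, and the transcription factors IRF4, PRDM1 and XBP1 maintain their programme. Myeloma arises from them and is often classed by the oncogene that an immunoglobulin translocation switches on, such as a D cyclin or a factor of the MAF family. Gains and losses of chromosome segments add further differences between tumours and between the lines grown from them.

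The replicates were close and the lines far apart. Across the 12017 genes, Pearson's r between the 2 AMO1 WT libraries was 0.994, against 0.861 to 0.865 between AMO1 and L363, 0.818 to 0.822 between AMO1 and RPMI and 0.817 to 0.821 between L363 and RPMI. Each library listed 10515 to 10955 genes at 1 FPKM or more. Depth is unknown, since the values are FPKM with no counts. The spread was estimated over all 20 libraries, among them 2 labelled AMO1 CfzR that did not match parental AMO1. They listed GSTP1 at 0.06 and 0.11 FPKM and HINT1 at 672 and 747 FPKM, the opposite of AMO1 WT for both genes (below), and correlated with L363 WT at 0.986 to 0.987. They enter no comparison here, and leaving them out of the fit gave the same 2054 calls.

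A gene was called when limma's Benjamini-Hochberg adjusted p was under 0.05 and the difference was at least 1 on the log2 scale. On this rule 2054 genes (17.1% of those tested) differed between AMO1 and the mean of the other lines, 1048 higher (8.72%) and 1006 lower (8.37%). The median difference over all tested genes was 0.03. Against L363 alone 2174 genes (18.1%) were called and against RPMI alone 2860 (23.8%). Of the 2054 genes, 927 were called against both lines, 435 against L363 only and 692 against RPMI only.

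A mean of 2 lines can be set by 1 of them, so a stricter class was formed. AMO1 stood apart at a gene when it was called in the same direction against the mean and against each line, and both AMO1 libraries lay beyond all 4 others. This held for 926 genes (7.71%), 549 higher (4.57%) and 377 lower (3.14%). The same count was 925 genes (7.7%) for L363 and 1469 genes (12.2%) for RPMI. In 210 of the 549 higher genes no L363 or RPMI group mean exceeded 1 FPKM, and in 192 of the 377 lower genes the AMO1 mean was under 1 FPKM.

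**Figure D1:**
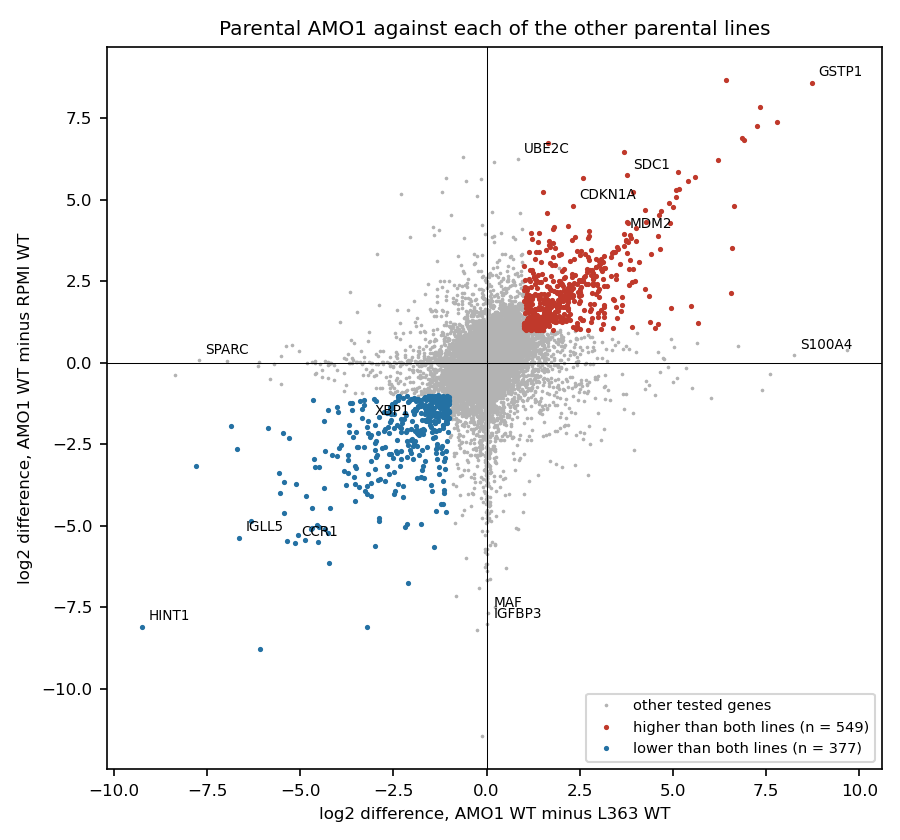
Log2 differences on the log2(FPKM + 1) scale between AMO1 WT and L363 WT (horizontal axis) and between AMO1 WT and RPMI WT (vertical axis), with a point for each of the 12017 tested genes. The 549 genes higher in AMO1 than in both lines lie at the upper right and the 377 lower genes at the lower left, while MAF, SPARC and IGFBP3 lie near an axis and were each expressed in only 1 other line.

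The markers of the labelled cell type were present in AMO1. Here and in later lists, counts are to be read against the 17.1% of all tested genes that were called, 8.72% higher and 8.37% lower. Of 10 plasma cell markers, all tested, 2 were called higher (SDC1 and SLAMF7) and 2 lower (XBP1 and CD38). JCHAIN, the joining chain of secreted antibody, was at 4245 and 3121 FPKM in AMO1, 6693 and 4812 in L363 and 2522 and 2282 in RPMI. IRF4, at 134 and 177 FPKM in AMO1, and PRDM1, at 22.5 and 30.2 FPKM, lay between the levels of the other lines and were not called.

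Markers of other cell types were mostly low, with CD79B, CD3E and EPCAM as exceptions. Of 6 B cell markers, 5 were under 0.46 FPKM in the 6 libraries and were not tested, among them MS4A1 and PAX5. The sixth, CD79B, a signalling chain of the B cell receptor, was at 51.3 and 52.5 FPKM in AMO1, 9.51 and 8.95 in L363 and 2.76 and 2.51 in RPMI, a difference of 3.12 (SE 0.10). Of 6 T and NK cell markers, 3 were tested and CD3E was called higher, at 6.73 and 10.7 FPKM in AMO1 and at most 0.28 in the other libraries, while CD3D was listed at 0 throughout. Of 5 myeloid markers LYZ alone passed the filter, at 4.01 to 6.36 FPKM in the 6 libraries, and was not called. Erythroid markers summed to 0 in both AMO1 libraries and to at most 2.36 FPKM elsewhere, and the 5 stromal and epithelial markers summed to 0.83 and 1.14 FPKM in AMO1 against 57.3 and 57.4 in RPMI, nearly all of it EPCAM.

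The largest differences were switches from near absence to high expression. GSTP1, the pi-class glutathione S-transferase that conjugates reactive compounds, was at 448 and 533 FPKM in AMO1. It did not exceed 0.24 FPKM in L363 or 0.45 in RPMI. The difference of 8.67 (SE 0.13, adjusted p = 6.96e-16) was the largest rise in AMO1 among the genes that stood apart. In ARH-77 the gene was at 584 and 606 FPKM, so it was low in 2 of the 4 WT lines. UCHL1, a neuronal ubiquitin hydrolase, had the same profile, at 263 and 218 FPKM in AMO1, at most 0.48 FPKM in L363 and RPMI and 285 and 264 in ARH-77 (difference 7.60, SE 0.14).

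HINT1, a histidine triad nucleotide-binding hydrolase, was the mirror image. AMO1 listed it at 0.16 and 0 FPKM. L363 had 648 and 652 FPKM, RPMI 288 and 299 and ARH-77 238 and 255. The difference was -8.67 (SE 0.09, adjusted p = 4.39e-18).

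The promoter sequences of a gene from each end are shown to set their CG content beside those levels, with CCR1, a chemokine receptor gene lower in AMO1, as the contrast. Each is the 250 bases before the RefSeq start in GRCh38.p14, written 5′ to 3′ on the gene's strand with every CG pair in capitals. GSTP1 lies at chr11:67583562-67583811 on the plus strand, HINT1 at chr5:131165257-131165506 on the minus strand and CCR1 at chr3:46208314-46208563 on the minus strand.
GSTP1: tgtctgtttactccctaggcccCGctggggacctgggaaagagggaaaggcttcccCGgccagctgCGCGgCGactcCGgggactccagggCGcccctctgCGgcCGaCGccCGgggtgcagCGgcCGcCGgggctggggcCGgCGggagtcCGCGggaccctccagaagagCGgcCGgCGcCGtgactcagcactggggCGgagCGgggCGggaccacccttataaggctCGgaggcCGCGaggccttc
HINT1: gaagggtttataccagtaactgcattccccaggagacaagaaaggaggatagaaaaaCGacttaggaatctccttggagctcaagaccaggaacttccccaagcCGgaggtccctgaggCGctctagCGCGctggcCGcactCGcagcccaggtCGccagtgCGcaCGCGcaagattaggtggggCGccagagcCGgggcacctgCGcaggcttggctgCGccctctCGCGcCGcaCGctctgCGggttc
CCR1: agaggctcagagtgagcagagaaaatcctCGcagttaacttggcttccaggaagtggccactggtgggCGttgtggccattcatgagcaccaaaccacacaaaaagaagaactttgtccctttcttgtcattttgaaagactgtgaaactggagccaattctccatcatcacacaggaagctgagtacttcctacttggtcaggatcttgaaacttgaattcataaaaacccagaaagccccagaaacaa

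Over the 300-base windows that RefSeq gives around a start, 250 before it and 50 after, GSTP1 held 36 CG pairs, HINT1 26 and CCR1 3. The median over 14446 windows of 9888 tested genes was 25, with quartiles of 15 and 33. A window was found for 9 of the 14 genes with the largest rise and for 12 of the 14 with the largest fall, and the median over their windows was 10 in both sets. A gene with several starts, such as FHL1 or CCL3, counts once per window, so these are not medians over genes. DNA methylation was not measured, and the base content was read as a description only.

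Among the other genes far above the other lines were secreted proteins and chemokines. SERPINF1, which encodes the antiangiogenic pigment epithelium-derived factor, was at 314 and 381 FPKM in AMO1 and at most 1.16 in the other 4 libraries. CCL3, the chemokine MIP-1 alpha that attracts myeloid cells and activates osteoclasts, was at 415 and 512 FPKM in AMO1, 4.19 and 4.54 in L363 and at most 0.27 in RPMI. Its near-identical paralog CCL3L3, which may share reads with it, was at 48.6 and 54.8 FPKM against at most 0.24. The chemokine and its receptor went in opposite directions, since CCR1, through which CCL3 signals, was at 0.28 and 0.61 FPKM in AMO1, 52.1 and 47.3 in L363 and 68.6 and 61.5 in RPMI (difference -5.33, SE 0.14).

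The remaining genes of the top 14 were enzymes, lymphoid genes and germline genes. DHRS2, a mitochondrial dehydrogenase, was at 289 and 221 FPKM in AMO1 and at most 1.66 in the others, with 167 and 250 in ARH-77. PTPRCAP, which binds the CD45 phosphatase, was at 49.5 and 68.7 FPKM against at most 0.32, and ZBTB32, a zinc finger repressor of the B lineage, at 39.8 and 40.8 FPKM against at most 0.24. MAGED1, a member of the MAGE family expressed in many tissues, was at 99.6 and 110 FPKM, with at most 0.09 in L363 and 2.63 and 2.89 in RPMI. WDR35, a part of the transport machinery of cilia, was at 114 FPKM in both AMO1 libraries and at most 2.31 in the others. GSTM2, SSX2B, GAGE2D and GAGE4 complete the set and are taken up with their families.

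**Figure D2:**
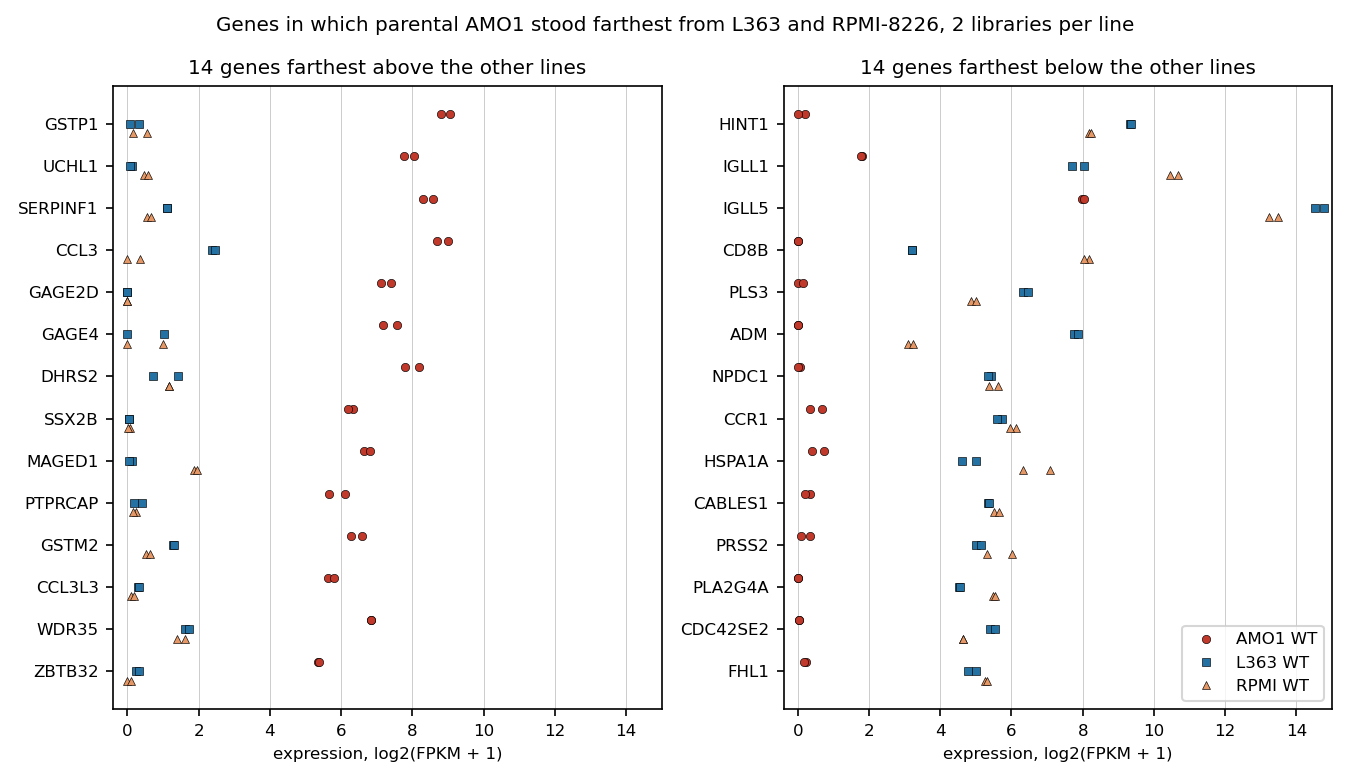
Expression as log2(FPKM + 1) of the 14 genes farthest above (left) and the 14 farthest below (right) the other lines, among those in which AMO1 stood apart, with a symbol for each of the 6 WT libraries and no averaging. In the left panel all AMO1 libraries lie above 5 while no other library reaches 3, and in the right panel IGLL5 alone is high in AMO1.

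After HINT1, genes with light chain sequence lay farthest below the other lines. IGLL5, which shares its sequence with a lambda light chain constant segment, was at 250 and 260 FPKM in AMO1, 27962 and 23549 in L363 and 11565 and 9645 in RPMI (difference -6.01, SE 0.49). IGLL1, a surrogate light chain gene with related sequence, was at 2.50 and 2.40 FPKM against 264 and 206 in L363 and 1630 and 1391 in RPMI. Reads of an expressed lambda light chain can fall on both genes, so their levels may not be those of the genes named. What share did so was not tested.

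The other genes below covered the cytoskeleton, peptide hormones and surface receptors. PLS3, an actin-bundling plastin, was at 0 and 0.11 FPKM in AMO1, 78.4 and 87.5 in L363 and 28.3 and 31.0 in RPMI. NPDC1, a neural membrane protein, was at 0.04 and 0 FPKM against 39.9 to 47.8 in the other 4 libraries, and CABLES1, a regulator of cyclin-dependent kinases, at 0.28 and 0.16 against 39.5 to 49.5. FHL1, a LIM domain protein, was at 0.17 and 0.12 FPKM against 26.4 to 38.8. HSPA1A, the inducible heat shock protein, was at 0.66 and 0.31 FPKM against 23.3 to 135, and PRSS2, a trypsinogen, at 0.07 and 0.26 against 31.0 to 64.1, and each has a near-identical copy that may share its reads.

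CD8B, ADM and PLA2G4A were listed at 0 in both AMO1 libraries. CD8B, the T cell coreceptor chain, was at 8.24 and 8.20 FPKM in L363 and 290 and 263 in RPMI, ADM, the vasodilator adrenomedullin, at 215 and 231 FPKM and at 7.5 and 8.5, and PLA2G4A, the phospholipase that releases arachidonic acid, at 21.9 and 22.5 and at 43.8 and 45.2. CDC42SE2, a small effector of CDC42, was at 0.03 and 0.02 FPKM in AMO1 and 23.8 to 45.1 in the others.

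MAF, a factor that an immunoglobulin translocation switches on in some myelomas, was at 0.02 FPKM in both AMO1 libraries, 206 and 211 in RPMI and listed at 0 in L363. Of 8 genes tied to MAF in myeloma, all tested, 7 were called lower in AMO1 (8.37% of all tested genes were) and none higher, with a median difference of -2.44 beside 0.03 over all tested genes. AMO1 stood apart at 4 of them, CCR1, DEPTOR, ITGB7 and NUAK1.

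DEPTOR, an inhibitor of mTOR kinase, was at 5.39 and 6.62 FPKM in AMO1, 106 and 102 in L363 and 35.5 and 44.0 in RPMI (difference -3.23, SE 0.17). ITGB7, the integrin beta chain that pairs with alpha 4 or alpha E, was at 40.4 and 72.0 FPKM against 131 and 113 in L363 and 1257 and 974 in RPMI (difference -2.75, SE 0.20). NUAK1, a kinase of the AMPK family, was listed at 0 in both AMO1 libraries and at 1.43 to 2.17 FPKM in the others. CX3CR1, SPP1 and TLR4 were below RPMI only, and CX3CR1, the fractalkine receptor, was at 73.1 and 72.9 FPKM there and at most 0.07 in the other 4 libraries. CCND2, a D cyclin, was the eighth member, at 77.0 and 73.8 FPKM in AMO1, 52.6 and 60.9 in L363 and 56.5 and 62.5 in RPMI, a difference of 0.37 that was under the threshold.

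Of 12 translocation oncogenes and D cyclins, 10 were tested, 1 was called higher and 3 lower. CCND1, the cyclin of another translocation class, was higher in AMO1 (9.21 and 8.61 FPKM) than in L363 (0.08 and 0.09) and not called against RPMI (11.8 and 12.2). MAF and MYCN were among the lower genes, and MYCN was listed at 0 in both AMO1 libraries, with 4.89 and 4.41 FPKM in L363 and 1.97 and 1.99 in RPMI. MYC, at 274 and 277 FPKM in AMO1 and 200 to 249 in the others, was not called.

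Many listed p53 targets were higher in AMO1. Of 26 listed genes that p53 activates, 25 were tested, 12 were called higher and none lower, against 8.72% called higher among all tested genes. The median difference of the list was 1.06, 24 of the 25 differences were positive, and AMO1 stood apart at 10. CDKN1A, the p21 inhibitor of cyclin-dependent kinases, was at 174 and 179 FPKM in AMO1, 32.8 and 36.5 in L363 and 5.14 and 5.41 in RPMI (difference 3.57, SE 0.35, adjusted p = 3.46e-07). MDM2, the ubiquitin ligase that degrades p53, was at 111 and 101 FPKM in AMO1 and 5.36 to 7.67 in the others (difference 3.81, SE 0.10).

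PHLDA3, GDF15 and EDA2R were almost silent outside AMO1. PHLDA3, an inhibitor of AKT, was at 18.4 and 16.7 FPKM in AMO1 and at most 0.41 in the others. GDF15, a stress-induced cytokine, was at 8.19 and 12.6 FPKM against at most 0.08, and EDA2R, a receptor of the TNF family, at 9.82 and 10.0 against at most 0.60 in L363 and 0 in RPMI. The death-promoting targets BAX, BBC3 (PUMA) and TNFRSF10B (a TRAIL receptor) were higher by 1.66, 1.64 and 1.97. SESN1, a stress-response sestrin, was at 18.4 and 22.2 FPKM in AMO1 and 4.56 to 6.27 in the others, and the antiproliferative BTG2 was higher by 1.14. DDB2, which recognises ultraviolet damage, was called against L363 only among the single lines, and TIGAR, a regulator of glycolysis, against RPMI only.

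SESN2 had a larger difference than several of these (1.24, SE 0.54) and was not called, with an adjusted p of 0.055 and AMO1 replicates at 22.1 and 46.8 FPKM. CCNG1 was the only tested member with a negative difference (-0.02), which was 0.13 without AMO1 replicate 1 or RPMI replicate 2 and 0.0034 without L363 replicate 1.

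The half-site that p53 binds as a pair was searched for in the same 300-base windows, on both strands, as a description of what lies near the starts of listed targets. Only exact matches to RRRCWWGYYY counted, where R is A or G, W is A or T and Y is C or T. Sites with a mismatch or outside these windows were not looked for, so a window without a match does not mean a gene without a site. The half-site was found in 5.66% of the 14446 windows of tested genes and in 5 of 33 windows (15.2%) of 21 listed targets. Of the called targets, 10 had a window and only SESN1 and DDB2 held the half-site, while MDM2, CDKN1A, BAX and GDF15 did not. The other 3 were FAS, AEN and FDXR, which were not called. DDB2 held 2 half-sites 1 base apart, shown in capitals in the first sequence below, at chr11:47214979-47214999 on the plus strand of GRCh38.p14, 6 bases after the RefSeq start. SESN1 held 1 (capitals in the second), in a stretch at chr6:109009008-109009057 on the minus strand, beginning 49 bases before a start.
DDB2: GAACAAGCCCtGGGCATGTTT
SESN1: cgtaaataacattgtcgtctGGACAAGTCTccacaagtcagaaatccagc

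**Figure D3:**
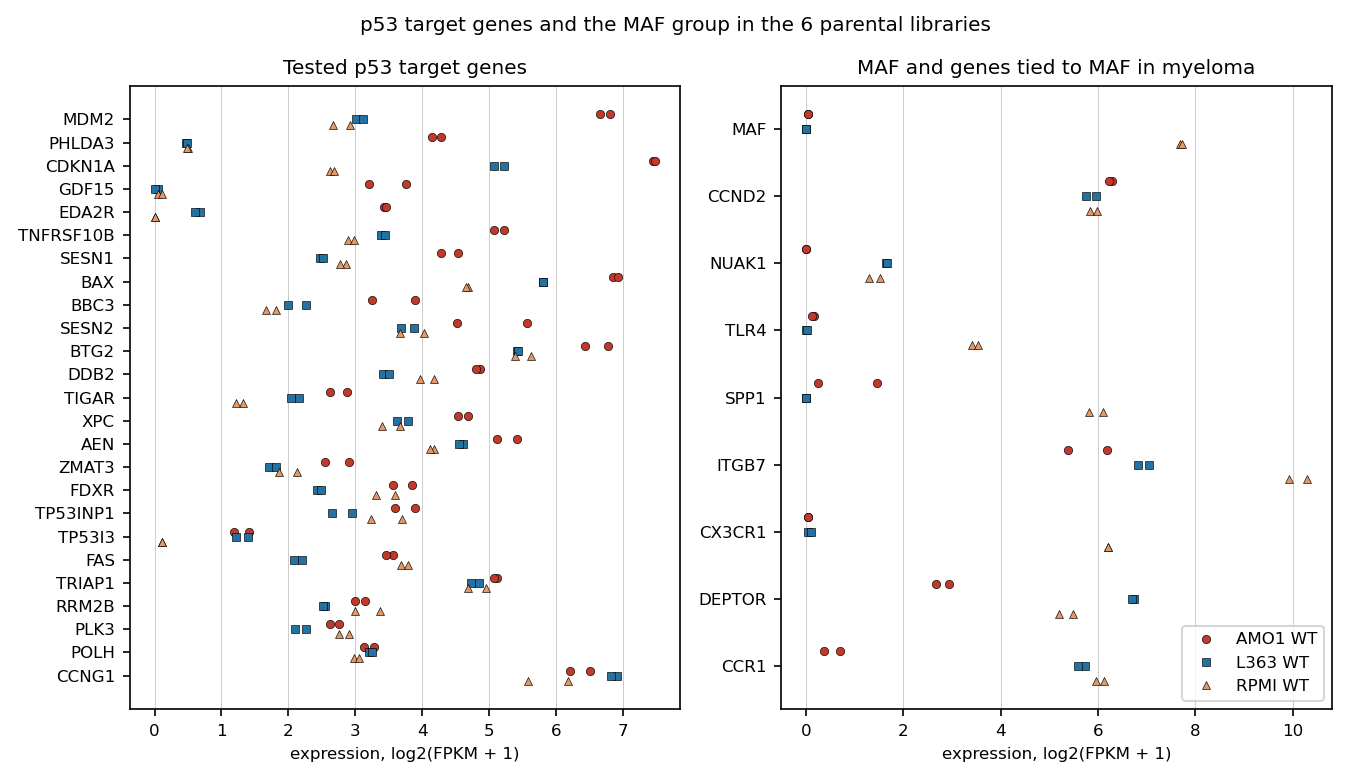
Expression as log2(FPKM + 1) of the 25 tested p53 targets (left), ordered by their difference, and of MAF and the 8 genes tied to MAF (right), with a symbol for each of the 6 WT libraries. AMO1 lies to the right of both lines in the upper rows of the left panel and to the left of them for CCR1, DEPTOR, ITGB7 and NUAK1, while MAF is high in RPMI only.

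Cell cycle inhibitors and the BCL2 family were mixed. Of 8 CDK inhibitors and RB1, 2 were called higher (CDKN1A and CDKN2C) and CDKN1C lower. CDKN2C, the p18 inhibitor, was at 35.5 and 34.5 FPKM in AMO1, 181 and 169 in L363 and listed at 0 in RPMI, so AMO1 lay between the lines. Of 14 tested BCL2 family genes, 4 were called higher (BAX, BBC3, MCL1 and BIK) and BCL2L1 lower. MCL1, the survival protein on which many myelomas depend, was at 334 and 368 FPKM in AMO1, 205 and 210 in L363 and 63.6 and 68.8 in RPMI, and was called against RPMI only. BCL2L1, which encodes BCL-XL, was at 14.1 and 12.6 FPKM against 24.4 and 23.7 in L363 and 45.1 and 45.3 in RPMI.

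SDC1 and XBP1, both central to plasma cells, went opposite ways. SDC1, the proteoglycan CD138 used to identify plasma cells, was at 3266 and 2883 FPKM in AMO1, 231 and 217 in L363 and 56.3 and 54.9 in RPMI (difference 4.77, SE 0.15, adjusted p = 6.53e-13). XBP1, the factor that expands the secretory apparatus, was at 63.2 and 78.3 FPKM in AMO1, 693 and 603 in L363 and 246 and 248 in RPMI (difference -2.49, SE 0.10). Of 30 genes of endoplasmic reticulum folding and the unfolded protein response, all tested, 4 were called higher and none lower, with a median of 0.46. They were DDIT3, SEL1L, DERL3 and TRIB3, and DDIT3, a stress-induced transcription factor, rested on AMO1 values of 22.5 and 40.0 FPKM against 5.53 to 13.2.

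Of 23 plasma cell and B cell transcription factors, 19 were tested, 4 called higher and 4 lower. KLF2, a factor of lymphocyte trafficking, was at 54.5 and 65.3 FPKM in AMO1 and 8.64 to 10.2 in the others. POU2F2 (OCT2), which drives immunoglobulin genes with the coactivator POU2AF1, was at 19.4 and 18.3 FPKM against at most 2.22, and SPIB and ID3 were higher by 2.12 and 1.34. XBP1, ID2, IRF8 and SPI1 were lower. IRF8 was at 0.16 and 0.06 FPKM in AMO1, 1.38 and 1.59 in L363 and 12.04 and 13.5 in RPMI, while SPI1, the myeloid factor PU.1, was at 20.3 and 22.5 FPKM in RPMI and at most 0.15 in the others.

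Near SDC1, MDM2, HINT1 and XBP1, other genes also stood apart in the same direction. Tested genes were placed in RefSeq order, and runs of at least 3 neighbours in which AMO1 stood apart in the same direction were counted. AMO1 had 17 such runs with 67 genes (7.24% of its 926), L363 had 16 with 52 genes (5.62%) and RPMI 32 with 113 genes (7.69%). DNA copy number was not measured. The windows of 17 genes around SDC1, MDM2, HINT1 and XBP1 were chosen after the values were seen.

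The longest AMO1 run held 8 genes, all higher, namely SMC6, GEN1, KCNS3, RDH14, TTC32, WDR35, LAPTM4A and SDC1. Their differences ran from 1.75 for SMC6, a part of a chromosome maintenance complex, to 5.25 for WDR35. LAPTM4A, a lysosomal membrane protein, was at 1149 and 1004 FPKM in AMO1 and 40.8 to 76.1 in the others. Of the 17 genes in the window around SDC1, 8 were called higher in WT cells, all of them in the run, and 2 were called lower. The other genes were not called, although 14 of the 17 differences were positive. MYCN, on the other flank, was lower, PUM2, next to SDC1, had a difference of 0.57 and was not called, and RHOB, the gene after it, was lower by a value of -3.52. All 8 genes of the run were also called higher in BtzR cells.

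Around MDM2, 8 of 17 genes were called higher and 1 lower, and the median of the window was 0.98. MDM2 lay in no run, since its nearest neighbours SLC35E3 and CPM, at 0.88 and 0.28, were not called. RAP1B, a small GTPase, was at 244 and 233 FPKM in AMO1 and 62.3 to 71.1 in the others, and the chaperonin subunit CCT2 was at 485 and 449 FPKM against 143 to 196. NUP107, YEATS4, FRS2 and MDM1 were higher by 1.39, 1.2, 1.38 and 1.71. MDM2 itself exceeded each neighbour in the window, by its 3.81. In BtzR cells 2 of the 17 were called higher, MDM2 and MDM1, and the median was 0.09.

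HINT1 headed a run of 5 lower genes with LYRM7, CDC42SE2, RAPGEF6 and FNIP1. RAPGEF6, an exchange factor for RAP GTPases, was listed at 0 in both AMO1 libraries and at 5.04 to 10.5 FPKM in the others. FNIP1, a partner of folliculin, was at 0.14 and 0.22 FPKM against 3.13 to 6.40, and LYRM7, a mitochondrial assembly factor, at 1.52 and 1.85 against 10.95 to 19.5. XBP1 lay between CCDC117 and ZNRF3, which were lower by values of -1.86 and -1.71. All 5 genes of the first run and all 3 of the second were also called lower in BtzR cells. In the window around XBP1, AMO1 also stood apart at CHEK2, which was lower (-2.21), and at TTC28, which was higher (2.00).

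**Figure D4:**
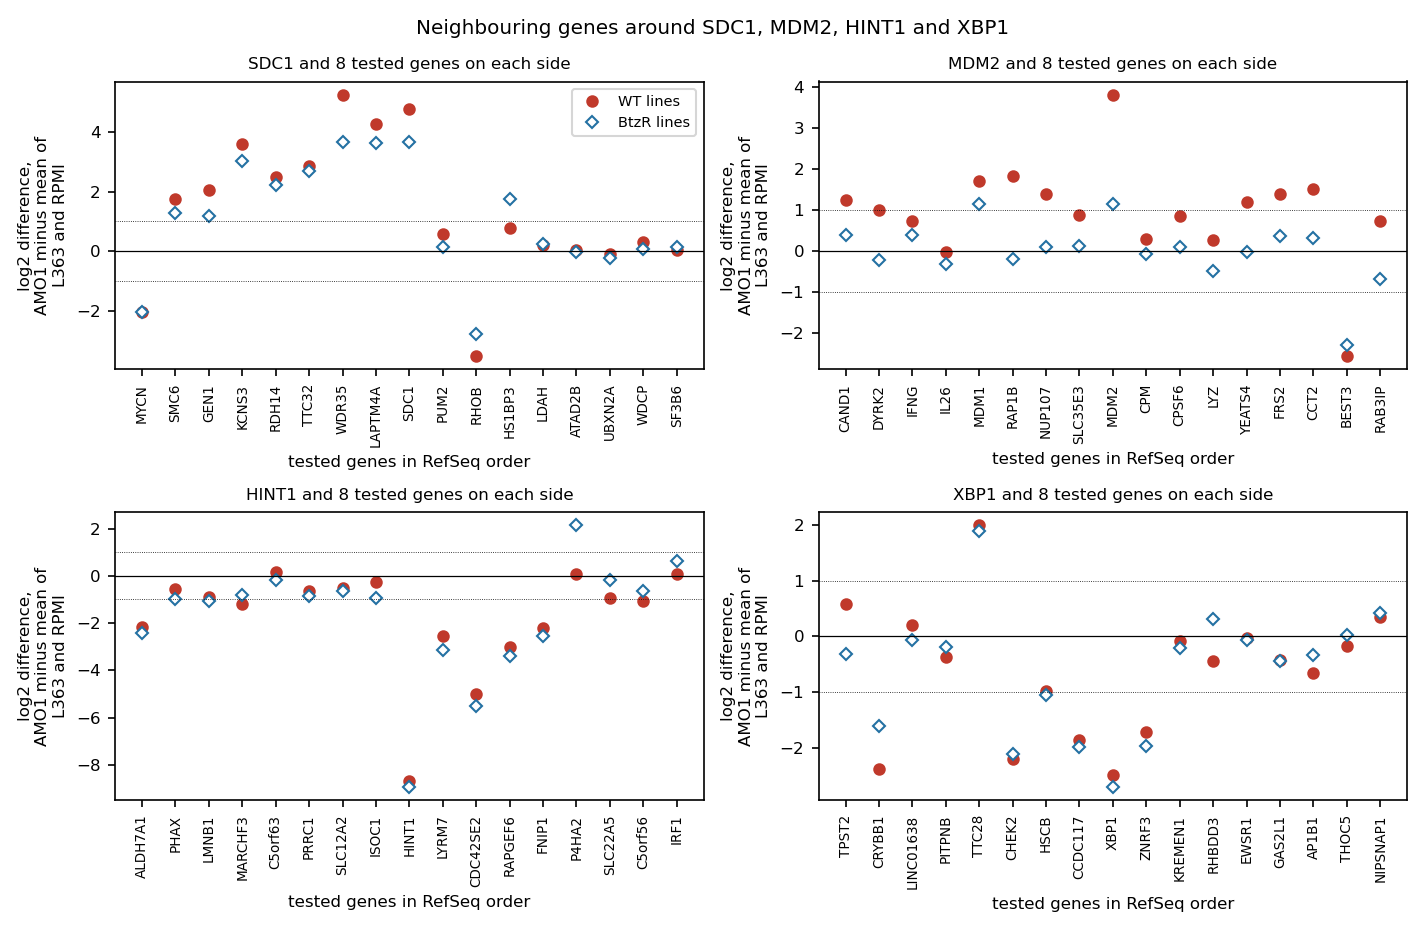
Log2 differences between AMO1 and the mean of L363 and RPMI for SDC1, MDM2, HINT1 and XBP1 and the 8 tested genes on each side in RefSeq order, in WT cells (filled circles) and BtzR cells (open diamonds), with dotted lines at a difference of 1 in each direction. In the SDC1, HINT1 and XBP1 windows the genes of the runs keep their direction in both, with WDR35 at 5.25 and 3.67 and SDC1 at 4.77 and 3.65, whereas around MDM2 most of the diamonds lie near 0 (median 0.09) and most of the circles higher (median 0.98).

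Antigens under study as myeloma targets were called in both directions. Of 30 listed genes, 28 were tested, 11 called higher (39.3%, against 8.72% of all tested genes) and 5 lower (17.9%, against 8.37%), with a median of 0.75. CD44, the hyaluronan receptor, was at 20.2 and 21.8 FPKM in AMO1, 0.03 in both L363 libraries and 1.31 and 1.03 in RPMI. FCRL5, an Fc receptor-like protein, was at 7.13 and 7.29 FPKM against at most 0.10, and LILRB4, an inhibitory receptor, at 67.7 and 99.7 against 6.91 to 8.81. CD70, the ligand of CD27, was at 165 and 167 FPKM against 33.7 to 54.6, and LY9 and SEMA4A were higher by 3.10 and 3.24.

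Several clinical targets were set by RPMI or not called. GPRC5D, at 102 and 104 FPKM in AMO1, 59.1 and 51.4 in L363 and 4.16 and 2.60 in RPMI, and CD48, at 330 and 359 FPKM against 401 and 366 in L363 and 6.02 and 5.74 in RPMI, were called against RPMI only. SLAMF7, an antibody target, was lower than in L363 (91.9 and 88.6 against 216 and 175 FPKM) and higher than in RPMI (0.74 and 0.82). TNFRSF17, which encodes BCMA, was at 96.2 and 87.0 FPKM in AMO1, 165 and 147 in L363 and 94.0 and 98.1 in RPMI and was not called. CD38 was at 12.6 and 15.9 FPKM, 17.4 and 16.3 in L363 and 45.6 and 56.7 in RPMI, a difference of -1.01 that was at the threshold. CD46, a complement regulator, was lower than in both lines (-1.04). TNFRSF13B, a receptor of the BCMA family, was called lower against L363 only.

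Of 13 surface genes that the study followed in resistance, 4 were called higher and 4 lower. The study picked them mostly from surface proteomics of resistant cells, some of them sublines of the lines compared here, so the list is not independent evidence. AMO1 stood apart at PTPRC, which encodes the CD45 phosphatase and was at 16.2 and 23.8 FPKM against 0.97 to 1.23, and below both lines at ICAM3, at 18.9 and 21.3 FPKM against 59.3 to 79.6, and at ITGB7.

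Several HLA class II genes were higher in AMO1. Of 17, all tested, 11 were called higher (64.7%, against 8.72% of all tested genes) and none lower, with a median of 1.76. AMO1 stood apart above both lines at 8 of them (4.57% of all tested genes were apart above). Against RPMI alone 15 were called higher, and against L363 alone 8 were called higher and 1 lower. HLA-DRB5 was at 2.27 and 2.83 FPKM in AMO1 and 24.71 and 25.35 in L363. HLA-DPA1 was at 80.4 and 91.8 FPKM in AMO1, 35.3 and 32.7 in L363 and 6.28 and 8.32 in RPMI, and HLA-DRB1, HLA-DQA1 and HLA-DRB3 were higher by 1.76, 2.63 and 4.08. The last of these is a gene that not every haplotype carries, and the DRB genes may share reads. HLA-DRA and CIITA, the class II activator, were not called (0.77 and 0.51). Of 18 class I and peptide loading genes, 2 were called higher (11.1%, near the 8.72% of all tested genes) and none lower, and HLA-F was at 29.3 and 29.0 FPKM against 2.53 to 8.61.

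Of 38 interferon-stimulated genes, 32 were tested, 8 called lower (8.37% of all tested genes were) and 2 higher, with a median of -0.65. MX1, an antiviral GTPase, was at 0.06 and 0.07 FPKM in AMO1, 50.6 and 41.3 in L363 and 4.02 and 3.49 in RPMI (difference -3.81, SE 0.21). IFI6 was at 2.53 and 2.61 FPKM against 43.8 and 26.2 in L363 and 7.81 in both RPMI libraries, and the transcription factor IRF7 and the polymerase PARP14 were lower than in both lines by values of -1.67 and -1.41. ISG15 was called lower against L363 only, and IFIT2, at 2.91 and 1.96 FPKM against at most 0.63, went the other way.

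Signalling genes were called in both directions. Of 21 tested NF-kappaB subunits and targets, 2 were called higher and 2 lower (19.0%, near the 17.1% of all tested genes), with a median of -0.21. TRAF3, an inhibitor of the alternative pathway that some myelomas lose, was at 13.3 and 12.9 FPKM in AMO1, 4.0 and 4.01 in L363 and 1.12 and 1.15 in RPMI, TNFAIP3, another inhibitor, was higher by 1.16, and TRAF1 was lower (-1.39). Of 13 tested RAS-MAPK output genes, 5 were higher and 1 lower. SPRY4 and SPRY2, feedback inhibitors of receptor tyrosine kinases, were at 6.22 and 6.13 FPKM against at most 0.65 and at 3.50 and 2.82 FPKM against 0 in all 4 other libraries. ETV4 was higher by 1.77, PHLDA1 lower (-2.45), and DUSP6, at a difference of 0.42, was not called.

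Of 36 chemokine and cytokine receptors, 29 were tested, 5 called higher and 5 lower. The growth factor receptors FGFR1 and MET were at 14.7 and 11.8 FPKM and at 13.7 and 12.7 FPKM in AMO1 against at most 0.18 and 1.47, and IL2RB was at 7.42 and 11.8 FPKM against at most 0.70. IL6ST, the signalling chain of the interleukin-6 receptor, was at 6.90 and 6.57 FPKM against 16.0 to 21.6, and CSF2RB was at 0.02 and 0.06 FPKM against 2.54 and 2.57 in L363 and 31.7 and 30.5 in RPMI. Of 24 tested integrins and adhesion molecules, 7 were higher and 6 lower, and ITGB1 and ITGA6 were higher than in both lines by 1.97 and 2.26.

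Cancer-testis antigens, germline genes that tumours reactivate, were called in both directions. Of 69 listed, 39 were tested, 20 called higher and 10 lower, and AMO1 stood apart above both lines at 10 and below them at CSAG3. A germline gene that is mostly silent passes the filter only through a line that expresses it, and near-identical copies are counted separately, so these counts are no result about the family. PRAME was at 30.3 and 33.7 FPKM in AMO1 and at most 0.73 in the others, and MAGEA10 at 30.6 and 26.4 against at most 0.98. SSX2B was at 79.5 and 72.0 FPKM against at most 0.06. The GAGE genes are nearly identical copies whose reads the authors' counting had to divide, so single members are uncertain. GAGE2D was at 138 and 169 FPKM in AMO1 and listed at 0 in the other 4 libraries, GAGE4 was at 145 and 190 against at most 1.05, and GAGE12B was at 954 and 1078 FPKM in AMO1, at most 0.56 in L363 and 771 and 766 in RPMI. MAGEA3, at 29.2 FPKM in both AMO1 libraries, lay between L363 (72.7 and 72.9) and RPMI (0.54 and 1.08).

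Of 35 glutathione and NRF2 genes, 30 were tested, 7 called higher (23.3%, against 8.72% of all tested genes) and 4 lower (13.3%, against 8.37%). Beside GSTP1, GSTM2 was at 76.4 and 94.7 FPKM in AMO1 and 0.44 to 1.47 in the others, and its paralog GSTM1, with which it may share reads, was at 33.4 and 29.9 FPKM against 0.81 to 3.07. FTL, the ferritin light chain and the most abundant transcript of both AMO1 libraries, was at 7275 and 7833 FPKM, 304 and 314 in L363 and 3158 and 3434 in RPMI. GPX1, a peroxide-removing selenoprotein, was at 98.6 and 129 FPKM, 35.8 and 34.6 in L363 and 0 and 0.11 in RPMI. NFE2L2, which encodes NRF2, was higher by 1.60. GPX7 was higher than in L363 only, and GSTT1 was at 0.29 and 0.22 FPKM in AMO1 against 6.28 to 8.22.

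Of 17 tested S100, annexin, galectin and vimentin genes, 8 were called higher (47.1%, against 8.72% of all tested genes) and 1 lower (5.88%, against 8.37%). LGALS3, galectin-3, was at 132 and 178 FPKM in AMO1, 23.7 and 26.3 in L363 and 2.02 and 2.01 in RPMI, and ANXA1 and ANXA5 were higher than in both lines by 2.16 and 1.41. S100A4 (254 and 502 FPKM) and S100A6 (88.8 and 164) exceeded L363, where neither passed 0.24 FPKM, and not RPMI (299 and 307, and 93.2 and 78.0). VIM, vimentin, was at 466 and 458 FPKM in AMO1, 893 and 899 in L363 and 19.0 and 19.2 in RPMI.

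The proteasome, the target of bortezomib, did not pass the call rule at any of its 39 tested subunits. Of these, 15 had an adjusted p under 0.05 and 17 an unadjusted p under 0.05, with differences from -0.53 for PSMA6 to 0.98 for PSMB6 and a median of 0.06. PSMB5, the subunit that bortezomib binds, was at 55.2 and 49.9 FPKM in AMO1, 60.1 and 53.01 in L363 and 54.7 and 52.3 in RPMI. Of 29 proliferation genes, 4 were higher (UBE2C, RRM2, AURKB and CCNE1) and none lower, a called share of 13.8% beside 17.1% of all tested genes, and MKI67 had a difference of 0.04. UBE2C, a mitotic ubiquitin-conjugating enzyme, was set by RPMI, at 0.84 and 0.95 FPKM there, 79.1 and 78.6 in L363 and 157 and 128 in AMO1. Of 18 tested ABC transporters, 1 was higher and 2 lower (16.7%, near the 17.1% of all tested genes), and AMO1 stood below both lines at ABCA7 (-1.32).

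The call against the mean was not always a difference from both lines. In 230 of the 2054 called genes AMO1 lay between L363 and RPMI, and the 3 largest were IGFBP3, MAF and SPARC. IGFBP3, an IGF-binding protein, was at 276 and 261 FPKM in RPMI and at most 0.06 in AMO1 and L363. SPARC, a matrix glycoprotein, was at 228 and 219 FPKM in L363 and at most 0.06 in AMO1 and RPMI.

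BtzR cells of the same lines gave a second look with other libraries. There 2217 genes (18.4%) were called between AMO1 and the mean of L363 and RPMI, 1127 higher (9.38%) and 1090 lower (9.07%). Of the 549 genes higher in WT AMO1, 329 (59.9%) were called higher and 2 lower. Of the 377 lower genes, 254 (67.4%) were called lower and 5 higher. AMO1 WT and AMO1 BtzR libraries correlated at 0.939 to 0.945 and L363 WT and BtzR libraries at 0.983 to 0.984. RPMI WT and BtzR libraries correlated least, at 0.892 to 0.895.

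GSTP1 was at 429 and 452 FPKM in AMO1 BtzR cells and HINT1 at 0 and 0.16 FPKM, with differences of 8.56 and -8.94. Of the p53 targets 9 were called higher in BtzR cells and none lower, with a median of 0.75. CDKN1A and PHLDA3 had differences of 4.22 and 4.06 there. All but 1 of the 17 class II genes were called higher in BtzR cells, with a median of 5.48, and HLA-DRA, at 218 and 223 FPKM in AMO1 WT, was at 1803 and 1688 in AMO1 BtzR. Of the genes tied to MAF 5 were called lower in BtzR cells.

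The change of the line difference between WT and BtzR cells was tested in the same fit. It was called at 1556 genes (12.9%) and at 336 of the 926 genes in which AMO1 WT stood apart. Among the latter the difference was smaller in BtzR cells at 182 of the 549 higher and 94 of the 377 lower genes and larger at 44 and 16. These genes were chosen for a large difference in the WT libraries, which the test also uses, so these counts are a description and not an independent test. DHRS2 was at 289 and 221 FPKM in AMO1 WT and 3.71 and 2.88 in AMO1 BtzR, and GAGE2D, at 138 and 169 FPKM in AMO1 WT, was listed at 0 in both AMO1 BtzR libraries.

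**Figure D5:**
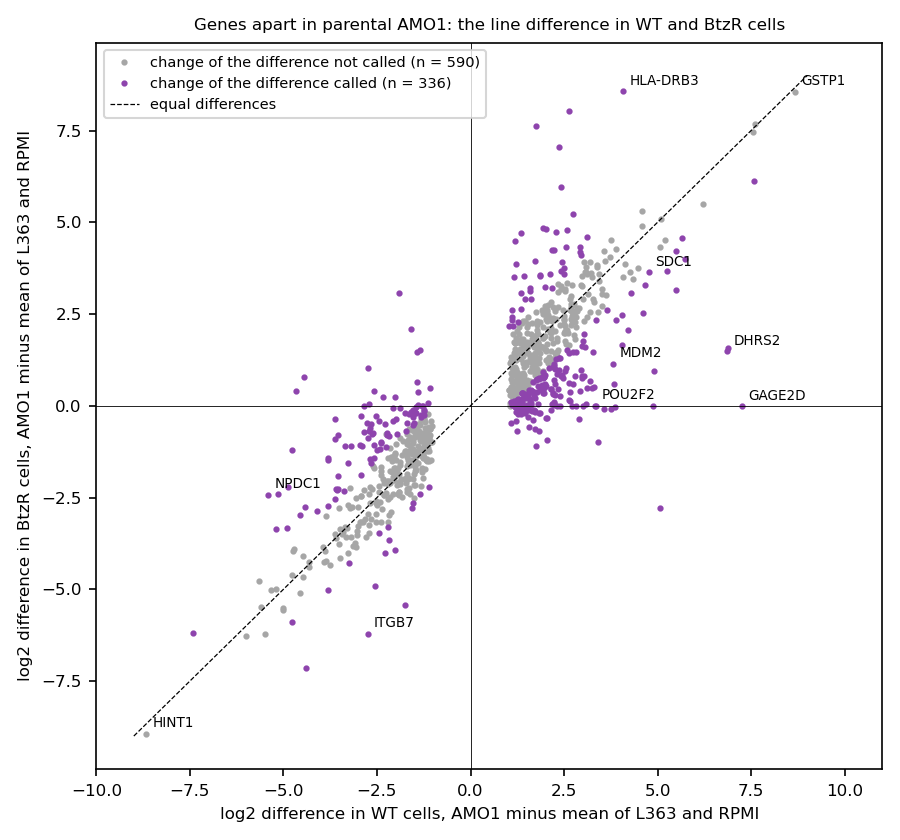
Log2 differences between AMO1 and the mean of L363 and RPMI in WT cells (horizontal axis) and BtzR cells (vertical axis) for the 926 genes in which AMO1 WT stood apart, with equal differences on the dashed line. GSTP1 and HINT1 lie close to the line at opposite ends, DHRS2, MDM2 and GAGE2D lie nearer 0 in BtzR cells, and 336 genes with a called change are shown in purple.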

How the data were processed

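RNA-seq was done by the authors on 2 biological replicates per group, and they deposited FPKM values, with 2 decimals, for 18305 genes in 20 libraries. The submitters' processing notes name HISAT2 2.0.4, Bowtie2 2.2.5 and RSEM 1.2.12 without their roles, and the genome build is not given in the sources used here. Groups came from the sample titles. Values were taken as log2(FPKM + 1), and genes with a mean of at least 1 FPKM in AMO1, L363 or RPMI WT cells were kept. limma 3.58.1 (R 4.3.3) was fitted with a mean for each of 10 groups and a mean-variance trend, leaving 10 residual degrees of freedom, and p-values were adjusted over all tested genes by the Benjamini-Hochberg method. The code was tested on simulated data. No strand setting is stated, so overlapping genes may share reads.

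Of the genes, those named are the 14 with the largest difference in each direction among genes apart from both lines, the 3 largest in which AMO1 lay between the lines, members of 28 gene lists, and genes in runs of neighbours. The compared members and the lists were chosen with earlier results of these data known, so their counts are descriptions. Gene order and promoter sequences came from RefSeq (GRCh38.p14), in which 18261 gene IDs matched, and 25 symbols turned into dates were restored by gene ID. Alternatives were other pseudocounts, filters, scalings, variance settings, a replicate block and the omission of libraries. Results that need items withheld from this text are not reported here.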

Additional observations from a re-analysis of the deposited data

Results flagged for a closer look

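Of the 163 genes named in the text that were called between AMO1 and the mean of L363 and RPMI in WT cells, 67 also had a called change of that difference in BtzR cells (limma, adjusted p under 0.05 and a change of at least 1). Each value below is the line difference in BtzR cells minus that in WT cells, on the log2(FPKM + 1) scale. The change went toward the other direction at 56 of the 67 genes and further in the same direction at 11. The sign of the difference turned at 10, and none of these was called in the new direction. GAGE2D and NUAK1 changed too, but no value is given because 1 side of their WT comparison was listed at 0.

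Among genes higher in WT AMO1, DHRS2 and GAGE4 had the largest drops of those for which a value is given. The change was -5.37 for DHRS2, -5.29 for GAGE4, -2.33 for CCL3L3, -1.72 for MAGED1 and -1.46 for SERPINF1. It was -3.32 for the B cell factor POU2F2 and -2.24 for CD3E. Glutathione genes changed by -2.14 (GPX1) and -1.28 (GSTM2), ANXA1 by -2.27 and PTPRCAP by -1.06.

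Several surface genes had a smaller difference in BtzR cells. The change was -2.75 for SEMA4A, -2.53 for FCRL5, -1.96 for GPRC5D, -1.54 for CD44 and -1.12 for SDC1. The receptors IL2RB, MET and FGFR1 changed by -2.23, -2.16 and -1.04 and the integrins ITGA6 and ITGB1 by -1.66 and -1.19.

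Around MDM2, 5 of the neighbouring genes named also had a called change, and others in the window, among them its nearest neighbours SLC35E3 and CPM, did not. MDM2 changed by -2.66, RAP1B by -2.02, NUP107 by -1.28, YEATS4 by -1.23, CCT2 by -1.19 and FRS2 by -1.02. Of the other p53 targets named, TNFRSF10B changed by -1.49 and SESN1 by -1.06, whereas BTG2 changed by 1.03. In other runs of neighbours WDR35 changed by -1.59, DIXDC1 by -1.25, CTSK by -2.48, CERS2 by -1.6, ARNT by -1.4, SETDB1 by -1.03, RASSF3 by -1.68 and XPOT by -1.29.

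HLA class II genes had a larger difference in BtzR cells. The change was 5.86 for HLA-DRB1, 5.4 for HLA-DQA1, 4.7 for HLA-DPA1 and 4.49 for HLA-DRB3, beside 1.27 for HLA-F. At S100A6, S100A4 and CD48 the difference was also larger, by 3.83, 2.73 and 1.12.

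Among genes lower in WT AMO1, most had a smaller difference in BtzR cells. The change was 3.68 for IGFBP3, 2.99 for NPDC1, 2.76 for PRSS2, 1.84 for HSPA1A, 1.57 for FHL1 and 1.23 for IGLL1. The interferon-stimulated genes MX1, ISG15, IFI6 and PARP14 changed by 2.37, 2.32, 1.81 and 1.45. TNFRSF13B changed by 2.43, CSF2RB by 2.27, SPI1 by 2.21, SPP1 by 2.15, BCL2L1 by 1.71, TLR4 by 1.35, IL6ST by 1.28 and ID2 by 1.03, and the cancer-testis gene CSAG3 by 2.59. At ITGB7 and PHLDA1 the difference went further down, by -3.47 and -1.01.

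The change mixes what happened in AMO1 with what happened in L363 and RPMI when they became resistant. Which line moved cannot be read from the change alone, only from the levels of each line. IGFBP3 was at 276 and 261 FPKM in RPMI WT and 0.32 and 1.05 in RPMI BtzR, and at most 0.06 in AMO1 WT and BtzR. NPDC1, in contrast, was at 0.04 and 0 FPKM in AMO1 WT and 8.76 and 10.2 in AMO1 BtzR. Groups of 2 libraries were too small for a search for single outlying libraries.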

How the results depend on the processing

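The 6 counts given above stayed within 1.5 times under each alternative, with 1 exception. The count of genes whose line difference changed in BtzR cells rose from 1556 to 2384 with a pseudocount of 0.1 FPKM and to 2347 with one of 0.01 FPKM, which make low values weigh more. With 0.1 FPKM the comparison with the mean of both lines gave 2920 calls, 2045 of them shared with the 2054 reported. Rescaling moved the median difference by less than 0.1 and the share of higher calls from 51% to 49% to 52.1%. Leaving out 1 library at a time gave 2046 to 2123 genes against the mean, 2157 to 2227 against L363, 2872 to 2934 against RPMI, 2197 to 2248 in BtzR cells, 1527 to 1621 for the change and 910 to 964 genes apart, and the lone library left in a group was then assumed to vary like those of the other groups. Replicate numbers did not pair the libraries (correlations of their deviations from -0.101 to 0.121), and a replicate block gave 2059, 2175, 2863, 2218, 1558 and 926 genes in the same order.

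No named gene that was called changed direction, but 4 that were not called and lay near 0 did. JCHAIN (-0.02) was 0.15 with quantile normalization and -0.24 to 0.20 without single libraries, MKI67 (0.04) was -0.0027 and -0.19 to 0.26, and CCNG1 (-0.02) and PSMB5 (-0.07) were -0.17 to 0.13 and -0.14 to 0.0059 without single libraries. CD38 was under the threshold with both rescalings and without AMO1 replicate 1, L363 replicate 1 or RPMI replicate 2 (-0.85 to -0.99), TIGAR without AMO1 replicate 1 (0.94), and BTG2 (0.97), TRIB3 (0.84), CD46 (-0.97) and DDIT3 (1.40, adjusted p = 0.054) without AMO1 replicate 2. CDKN1C was under it without RPMI replicate 2 (-0.98) and SPP1 with a pseudocount of 0.01 FPKM (-0.44). SESN2 was called with the replicate block (adjusted p = 0.0306), with only the libraries compared (0.00263) and without AMO1 replicate 1 (0.0434), AEN without AMO1 replicate 2 (1.06), and PSMB6 passed the threshold without AMO1 replicate 1 or L363 replicate 1 (1.02 and 1.01). No exact permutation test was made, since 2 against 4 libraries cannot give a p below 0.133. Only 3 lines were compared, 1 culture history each, and without counts the precision of low values is unknown.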

Other observations

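Further runs of neighbouring genes apart in AMO1 differed in whether BtzR cells showed them. ALG9, a glycosyltransferase, headed 6 higher genes, all also called higher in BtzR cells. Among them DLAT, the acetyltransferase of the pyruvate dehydrogenase complex, was at 271 and 236 FPKM in AMO1 and 34.3 to 49.7 in L363 and RPMI, and DIXDC1, a regulator of WNT signalling, was at 31.0 and 31.7 FPKM against 1.83 to 4.77. PIH1D2 was higher by 2.51. In a run of 5 lower genes, 4 also called lower in BtzR cells, EPHX1, the microsomal epoxide hydrolase, was at 4.43 and 5.58 FPKM against 28.7 to 33.0.

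Of the 4 higher genes CTSK, ARNT, SETDB1 and CERS2, none was called in BtzR cells. CERS2, a ceramide synthase, was at 415 and 409 FPKM in AMO1, 172 and 170 in L363 and 70.1 and 62.8 in RPMI, and ARNT, the partner of the hypoxia-inducible factors, at 96.9 and 112 FPKM against 15.7 to 23.6. CTSK, the collagen-degrading protease cathepsin K, was at 13.7 and 15.01 FPKM, 2.92 and 3.04 in L363 and 0.44 and 0.65 in RPMI. The same held for a run of 4 that includes XPOT, TBK1 and RASSF3, which were higher by 1.53, 1.5 and 2.15 in WT cells. These runs were chosen for description after their values were seen.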
